A study of Mus musculus with 6 samples.

Results

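The 38 genes described here encode proteins that sense DNA damage, signal it and repair it. They were taken by symbol from a fixed list of DNA damage response and repair genes, by a rule that uses no measured value, although earlier results of these data were known when the list was made. They make up 38 of the 27179 genes with an identifier in the count table. All 38 passed the filter on low counts, which left 14855 genes for testing. Gene expression was measured by bulk RNA-seq in cancer-associated fibroblasts (CAFs) sorted from 3 mammary tumors of raGFP-Wnt1 mice. These mice carry the MMTV-Wnt1 transgene, in which a mammary tumor virus promoter drives Wnt1 in mammary epithelium and tumors form, together with a Pdgfra reporter allele that places green fluorescent protein (GFP) in the nuclei of Pdgfra-expressing cells; both the negative and the positive fraction carry both alleles. From each tumor, GFP-positive cells were sorted by flow cytometry into CD34 negative and CD34 positive CAFs, giving 3 libraries per group, and the tumor number in the labels is shared by both fractions of a tumor. The sort therefore marks cells by Pdgfra and CD34 and not by a treatment: the labels name no DNA-damaging agent, normal fibroblasts are not part of the comparison, and the age of the mice is not stated. Each library is named by its CD34 status and its tumor number, as in negative library 1.

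Cells use separate routes for separate lesions. Breaks across both DNA strands are sensed at chromatin, signaled by the kinases Atm and Atr, and repaired by homologous recombination, which copies a sister chromatid, or by end joining, which ligates the ends. Base excision removes small base lesions, nucleotide excision removes bulky adducts, the Fanconi anemia proteins act on interstrand crosslinks, and translesion polymerases copy past lesions left in place. Many recombination and Fanconi genes are transcribed mostly in S phase, under E2F factors, so their RNA level in a bulk sample can follow the share of cycling cells. In bulk libraries of sorted cells, fewer cells that express a gene and less RNA per cell cannot be told apart.

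Library totals ranged from 16238059 to 86609267 counts. CPM of single genes are counts relative to library size, scaled by TMM factors, whereas the summed CPM in this paragraph leave these factors out. Fibroblast markers were high in every library. Summed CPM of 6 epithelial markers lay between 13.4 and 140, of 6 immune markers between 5.23 and 12.0, and of 4 endothelial markers between 6.09 and 27.2. The 4 pericyte markers Rgs5, Cspg4, Mcam and Notch3 separated the groups, with a summed level of 184 to 228 CPM in the negative libraries and 28.3 to 93.1 CPM in the positive libraries. Whether pericytes were present among the sorted cells, and any part of theirs in the results below, was not tested. A pair of libraries stood apart for the repair genes. Negative library 3 had no count for 1178 of the tested genes, against 8 to 288 in the others, and 4 of the 38 genes were at 0 there. Positive library 2 had the highest summed level of 21 S phase and mitosis genes, at 845 CPM against 208 to 342 CPM in the other 5 libraries.

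The repair genes were expressed at low to moderate levels in both groups and, gene by gene, almost no difference between the groups passed a test. Per kilobase of transcript, the mean level over all 6 libraries ran from 0.150 RPKM (CPM divided by the gene length in kilobases) for Palb2 to 11.4 RPKM for Xpa, with a median of 2.91. In limma-voom without a tumor term, a model fitted over all tested genes with Benjamini-Hochberg adjustment, 0 of the 38 genes passed an adjusted p of 0.05, where 0.121% of all tested genes did. At an unadjusted p under 0.05, 1 gene was higher in CD34 negative CAFs (Polk; 7.23% of all tested genes) and 5 were lower (Parp1, Xrcc5, Xrcc6, Polh and Bard1; 7.1% of all tested genes). With the tumor as a block, which compares both fractions of one tumor, Polk was called higher (4.32% of all tested genes were) and 0 genes were called lower (4.25%). The edgeR quasi-likelihood test called 0 of the genes with or without the block. DESeq2 called Polk alone without the block, where it called 4.54% of all tested genes, and Polk, Bard1 and Xrcc6 with the block, where it called 11.6%. As shares of the 38 genes, 2.63% were called with the block in limma-voom and in DESeq2 without it, and 7.89% in DESeq2 with it, each below the share of all tested genes; at an unadjusted p under 0.05, 13.2% were lower and 2.63% higher.

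**Figure D1:**
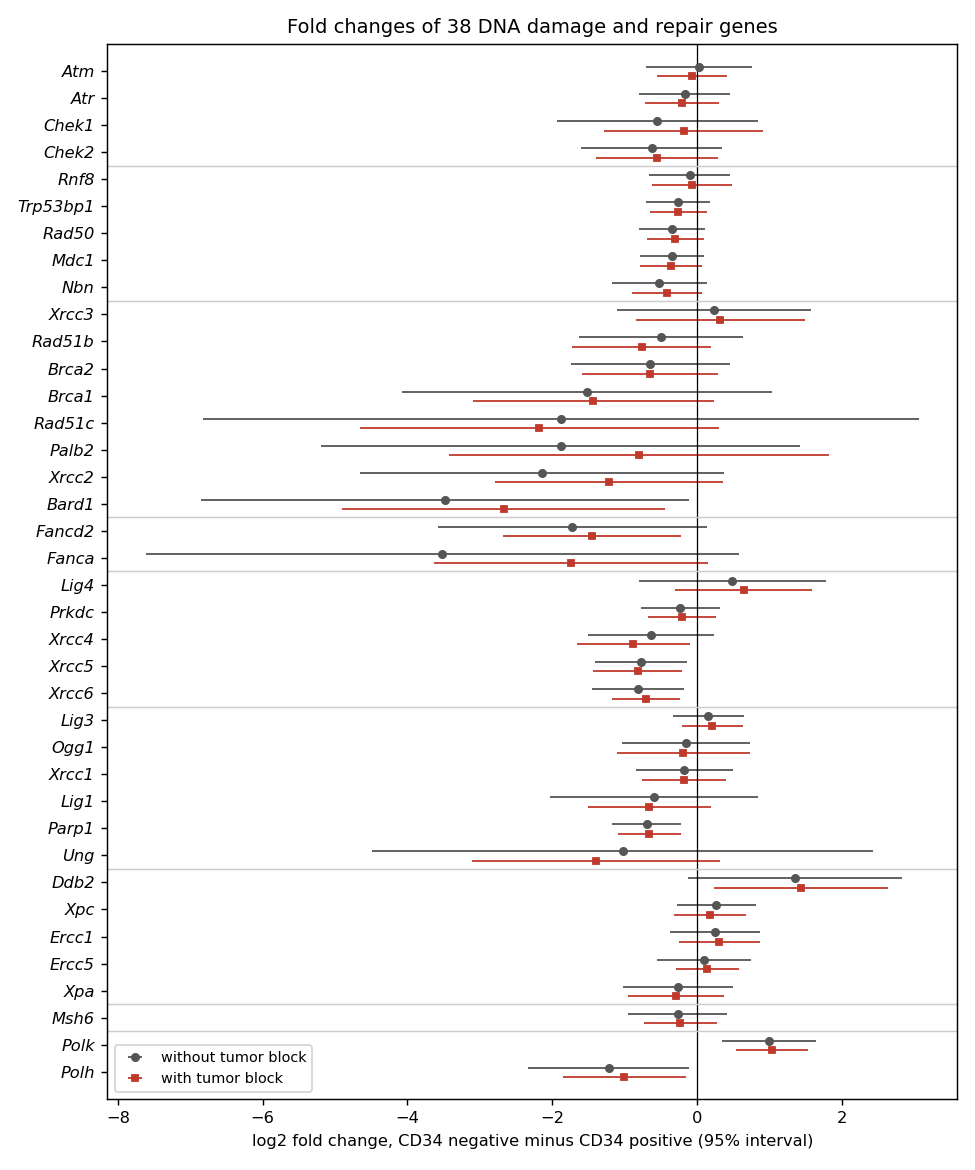
Log2 fold change of each of the 38 genes, CD34 negative minus CD34 positive (x axis), with genes on the y axis in blocks by repair role. Grey circles are from limma-voom without and red squares with the tumor as a block, and bars are 95% confidence intervals; only Polk passed the adjusted threshold, and only with the block, and the widest bars without the block belong to Rad51c, Fanca and Ung.

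The log2 fold changes, with positive values meaning higher in CD34 negative CAFs, leaned to the negative side. There were 9 genes above 0 and 29 below, with a median of -0.43, against a median of -0.03 and 47.7% above 0 over all tested genes. The lean was uneven across tumors, since the median log2 ratio of the 38 genes within a tumor was -0.07 in tumor 1, -0.36 in tumor 2 and -0.40 in tumor 3. With tumor 2 left out the median fold change was -0.21, and without positive library 2 alone it was -0.26. In 17 of the 38 genes the ratio had the same sign in all 3 tumors (44.7%, against 46.3% of all tested genes). Of these 17, 3 were positive and 14 negative. Over the 14855 tested genes, the ratio was positive in all 3 tumors for 3394 and negative in all 3 for 3478. The CPM of the groups did not overlap for 1 gene that was higher in CD34 negative CAFs, Polk (10.4% of all tested genes), and for 6 that were lower, Mdc1, Xrcc4, Parp1, Xrcc5, Xrcc6 and Bard1 (10% of all tested genes). Of the 38 genes, 10 had a fold change of 1 or more in size on the log2 scale, and 14 lay within 0.3 of 0. The large values were also the imprecise ones, with a median standard error (SE) of 1.28 among those 10 genes against 0.35 over all 38.

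**Figure D2:**
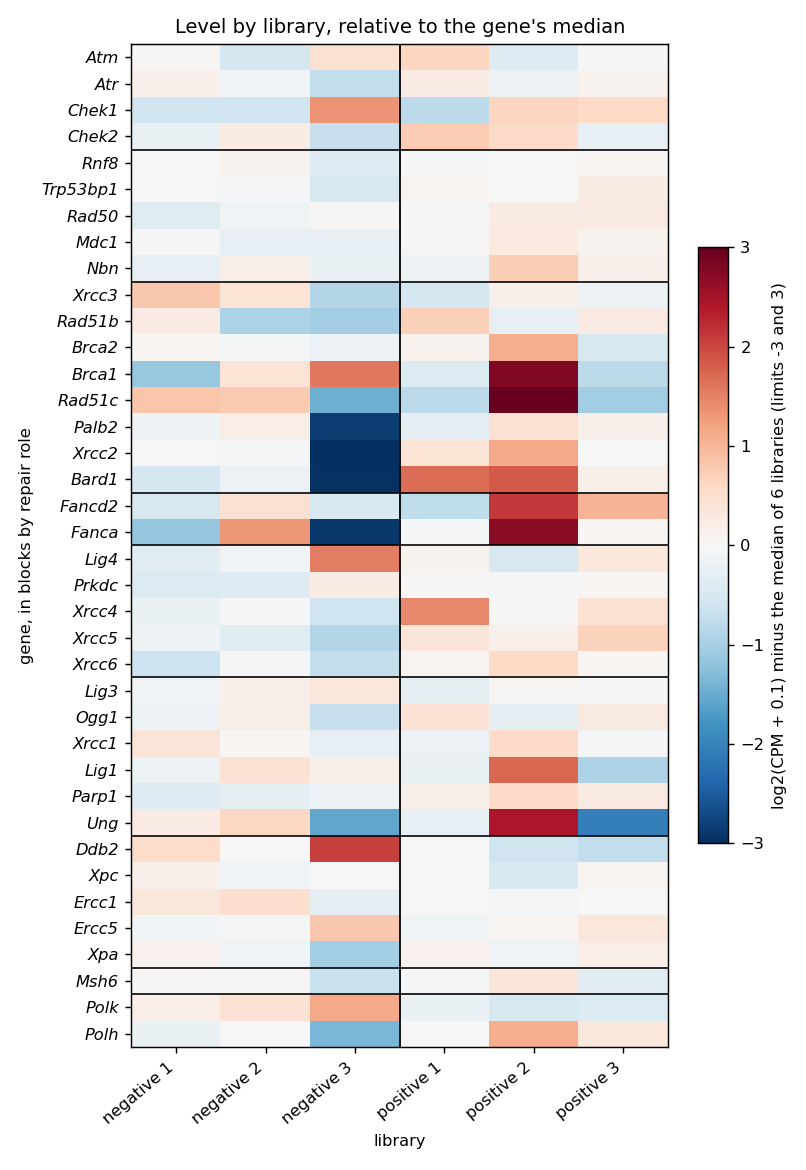
Level of each gene in each library as log2(CPM + 0.1) minus the gene's median over the 6 libraries (colour, limited to -3 and 3), with genes on the y axis by repair role and libraries on the x axis. Positive library 2 holds the highest value for 18 of the 38 genes (17.6% of all tested genes). Negative library 3 holds the lowest for 21 (30.2% of all tested genes).

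The translesion polymerases held Polk, the one gene of the 38 called by limma-voom with the block on all 6 libraries. Polk encodes polymerase kappa, which copies past bulky adducts on guanine and also serves gap filling in nucleotide excision repair. Its level was 27.5, 32.2 and 52.7 CPM in negative libraries 1, 2 and 3 and 20.5, 17.0 and 17.8 CPM in positive libraries 1, 2 and 3. All negative libraries lay above all positive libraries, and negative library 3 stood well above the other negative libraries. The log2 fold change was 0.99 (SE 0.28, adjusted p = 0.177 in limma-voom), and 1.04 (SE 0.22, adjusted p = 0.0205) with the tumor as a block, with a higher level in CD34 negative CAFs in 3 of 3 tumors. The call with the block held in limma-voom without any one of the tumors, where the log2 fold change was 1.18, 1.12 and 0.74 without tumor 1, 2 and 3, and was lost in edgeR with the block, at 0.97 and an adjusted p of 0.085. Polh, for polymerase eta, which copies past ultraviolet light-induced pyrimidine dimers, had the opposite sign, at 4.02, 4.69 and 1.73 CPM in the negative and 4.58, 10.0 and 5.79 CPM in the positive libraries. The groups overlapped, and the log2 fold change was -1.22 (SE 0.49, adjusted p = 0.313 in limma-voom).

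The Polk gene lies on chromosome 13 of GRCm38.p6, at 96480687 to 96542579 on the minus strand, and RefSeq gives it a pair of promoter windows (250 bases before to 50 after a start). The window at the outer start, chr13:96542530-96542829, held none of the 4 motifs searched (E2F, cell cycle homology region, CCAAT and p53 half-site). The window at an inner start, chr13:96519138-96519437, held the letters of a p53 half-site, which stand in capitals below because Polk was called by limma-voom with the block and p53 is a factor that damage signaling activates. Such letters stand in 8.36% of all 32851 promoter windows, and among the repair genes with a window they stand also in that of Fanca.

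Polk, inner start: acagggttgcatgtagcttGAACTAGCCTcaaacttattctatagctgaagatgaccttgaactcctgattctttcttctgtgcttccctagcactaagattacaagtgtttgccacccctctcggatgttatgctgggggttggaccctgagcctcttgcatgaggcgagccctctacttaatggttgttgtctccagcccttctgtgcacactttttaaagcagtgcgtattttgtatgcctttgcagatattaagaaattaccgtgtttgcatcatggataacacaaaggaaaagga

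Nucleotide excision was the one role in which most genes were above 0. Of its 5 genes, 4 had a positive log2 fold change and 0 passed the test. Ddb2 encodes the damaged DNA binding subunit that finds ultraviolet light lesions and hands them to Xpc. It measured 5.41, 3.63 and 15.6 CPM in the negative libraries and 3.71, 2.39 and 2.15 CPM in the positive libraries. Negative library 3 was far above the rest, and negative library 2 lay just below positive library 1, so the groups overlapped. In the fit, Ddb2 had a log2 fold change of 1.35 (SE 0.65, adjusted p = 0.387 in limma-voom) and 0.85 without negative library 3. Ddb2 overlaps Acp2, which had more counts, in the annotation, and whether the counting used strand is not stated. The lesion sensor Xpc, the incision nuclease subunits Ercc1 and Ercc5 and the damage verifier Xpa lay between -0.26 and 0.27 on the log2 fold change scale. Their mean levels were between 9.62 and 25.9 CPM in the negative fraction and between 11.7 and 22.7 CPM in the positive fraction.

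Homologous recombination lay mostly below 0. Of its 8 genes, 7 had a negative log2 fold change, with a median of -1.70, and 0 passed the test. Bard1 is the obligate partner of Brca1 in the ubiquitin ligase that acts at breaks and stalled forks. It measured 0.445, 0.598 and 0 CPM in the negative libraries and 2.41, 2.69 and 0.776 CPM in the positive libraries, so every positive library was above every negative library. A count of 0 in negative library 3 allows up to 0.0825 CPM, which is 3 counts in that library. Bard1 had a log2 fold change of -3.48 (SE 1.47, adjusted p = 0.337 in limma-voom), and it ranged from -4.40 to -1.90 over the 26 alternatives in which it was tested, all below 0. The block gave -2.67, with an adjusted p of 0.142.

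Brca1, which directs broken ends to recombination, showed how much one library could carry. It measured 0.641, 2.06 and 4.73 CPM in the negative libraries and 1.11, 11.003 and 0.847 CPM in the positive libraries. Positive library 2 was the highest of all, and the other positive libraries lay below negative libraries 2 and 3. The log2 fold change of -1.52 (SE 1.11, adjusted p = 0.573 in limma-voom) turned to 0.73 without positive library 2. Rad51c, which acts in the strand exchange step of recombination, had a similar shape, with 0.392, 0.376 and 0 CPM in the negative and 0.0619, 2.95 and 0.0353 CPM in the positive libraries. Those values rest on 22, 17 and 0 counts and on 1, 252 and 1 counts. Its log2 fold change of -1.88 (SE 2.16, adjusted p = 0.731) turned to 1.08 without positive library 2.

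Palb2, which bridges Brca1 and Brca2, measured 0.552, 0.731 and 0 CPM in the negative and 0.495, 0.890 and 0.706 CPM in the positive libraries. Apart from the 0 in negative library 3, the groups shared one range. For Palb2 the log2 fold change was -1.89 (SE 1.45, adjusted p = 0.593 in limma-voom) and -0.29 without negative library 3. Xrcc2, which acts in the same step, measured 1.85, 1.77 and 0.0550 CPM in the negative and 2.48, 4.14 and 1.83 CPM in the positive libraries. Its log2 fold change of -2.14 (SE 1.10, adjusted p = 0.419) was -0.77 without negative library 3, so that library set most of its size too. Brca2, a mediator of recombination, and Rad51b and Xrcc3, which act with Rad51c and Xrcc2, lay at -0.64, -0.50 and 0.23. Xrcc3 overlaps Klc1, which had more counts, in the annotation.

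**Figure D3:**
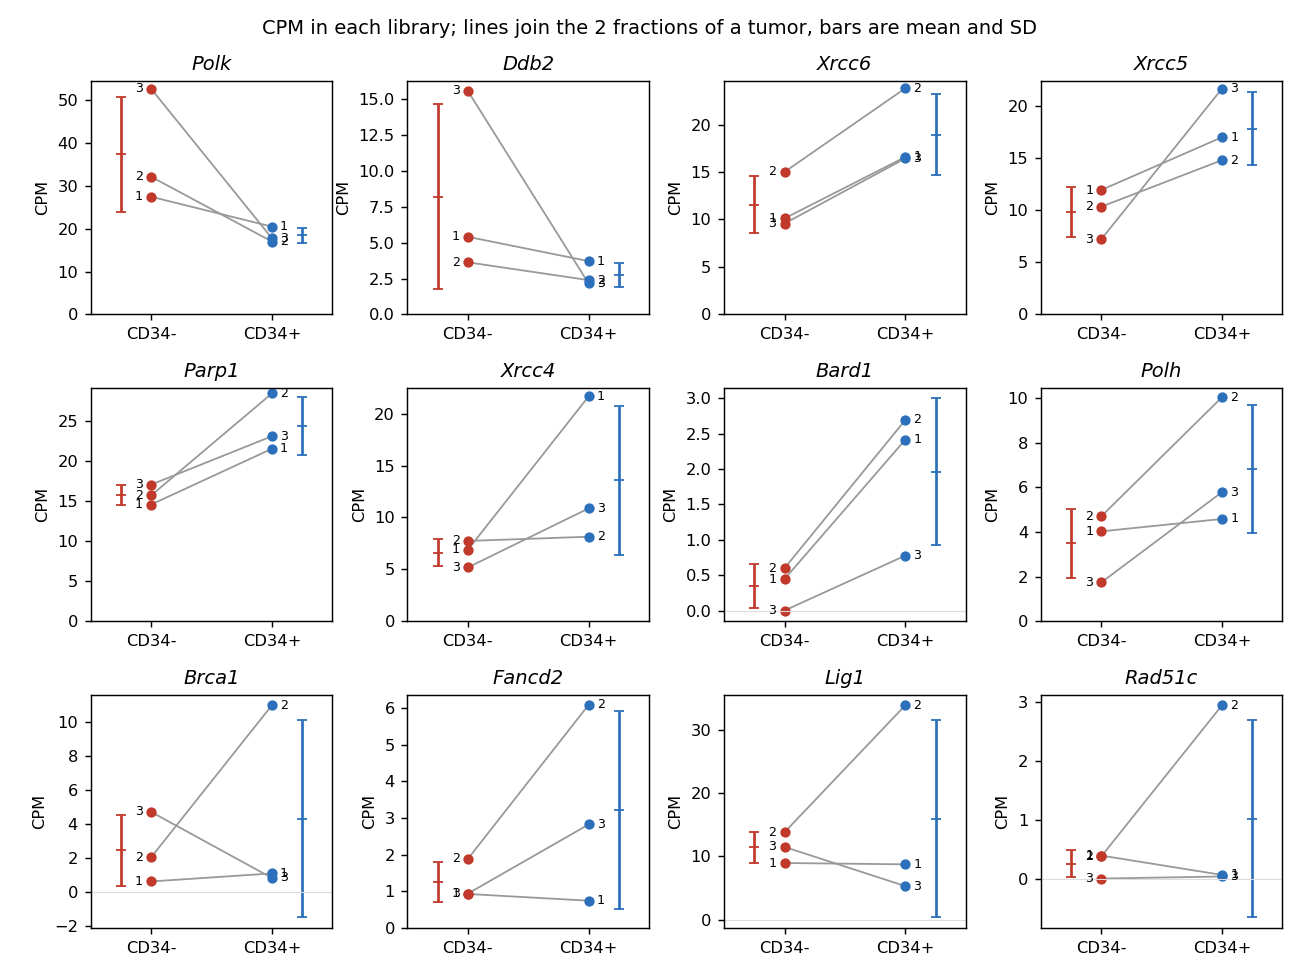
CPM of 12 of the genes in each library, by CD34 status (x axis); lines join the fractions of one tumor, numbers are tumors, and bars at the side are the mean and standard deviation (SD) of 3 libraries. Polk is higher in the negative fraction of every tumor, Xrcc6, Xrcc5, Parp1, Xrcc4 and Bard1 are lower in every negative library than in every positive one, and Brca1, Lig1 and Rad51c have their highest value in positive library 2.

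The 2 Fanconi anemia genes had negative fold changes of the same kind. Fanca, a core complex subunit that marks stalled forks for repair, measured 0.231, 1.75 and 0 CPM in the negative and 0.619, 4.76 and 0.670 CPM in the positive libraries. Within every tumor the negative fraction was the lower, but negative library 2 exceeded positive libraries 1 and 3. For Fanca the log2 fold change was -3.52 (SE 1.79, adjusted p = 0.417 in limma-voom), with -1.74 under the block and -1.84 without negative library 3. Fancd2, the protein that this complex ubiquitinates, measured 0.926, 1.88 and 0.935 CPM in the negative and 0.743, 6.09 and 2.82 CPM in the positive libraries. Its log2 fold change was -1.72 (SE 0.81, adjusted p = 0.381) and -0.56 without positive library 2. Fanca overlaps Zfp276, which had more counts, and Fancd2 overlaps Fancd2os in the annotation.

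A group of 10 of the genes is known to be transcribed mainly around S phase: Brca1, Brca2, Bard1, Chek1, Fanca, Fancd2, Lig1, Msh6, Ung and Xrcc2. All 10 had negative log2 fold changes, with a median of -1.27, against -0.24 for the other 28 genes. Positive library 2 held the highest value for 9 of the 10, where it was the highest for 17.6% of all tested genes. Its level was 4.14 times the median of the other 5 libraries at the median of these 10 genes, against 1.05 times for the other 28. Within tumors, the median log2 ratio of the 10 genes was -1.37 in tumor 2 but -0.02 in tumor 1 and -0.01 in tumor 3. These medians hide genes that went both ways. Bard1, Fanca and Xrcc2 had negative ratios in all 3 tumors, with their lowest in tumor 3, at -5.85, -5.64 and -4.75, where the negative library had 0 or few counts. In tumor 3, Brca1 and Lig1 had positive ratios of 2.46 and 1.11. Positive library 2 also had the highest summed level of S phase and mitosis genes, and the part of cycling cells was not tested.

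RefSeq promoter windows were available for 31 of the 38 genes, 37 windows in all. They were searched on both strands for the E2F letters TTTCCCGC, TTTGGCGC, TTTCGCGC and TTTGCCGC, for the cell cycle homology region letters TTTGAA and TTCGAA, for CCAAT and for the p53 half-site, motifs picked with the values known. E2F letters stood in windows of 8 of the 31 genes, against 2.26% of all 32851 promoter windows, and in 4 of the 8 S phase-linked genes with a window. The other motifs stood in 5 genes for the cell cycle homology region (19.2% of all windows), in 16 genes for CCAAT (37.4%) and in 2 genes for the p53 half-site. A gene may have more than one window and the letters are a description, not a binding site. The windows of Bard1, Brca2, Rad51c and Xrcc6 are shown because the first 3 are recombination genes with negative values and Xrcc6 is an end joining gene lower in every tumor, and all 4 hold E2F letters. In these windows of GRCm38.p6, written 5′ to 3′ on the strand of the gene, capitals mark E2F letters and, in Bard1 nearer to its beginning, cell cycle homology region letters. The coordinates are chr1:71102923-71103222 (minus strand) for Bard1, chr5:150522371-150522670 (plus strand) for Brca2, chr11:87404905-87405204 (minus strand) for Rad51c and chr15:82016119-82016418 (plus strand) for Xrcc6. The E2F letters began at -209, -168, -5 and -46 relative to the start, in that order.
Bard1: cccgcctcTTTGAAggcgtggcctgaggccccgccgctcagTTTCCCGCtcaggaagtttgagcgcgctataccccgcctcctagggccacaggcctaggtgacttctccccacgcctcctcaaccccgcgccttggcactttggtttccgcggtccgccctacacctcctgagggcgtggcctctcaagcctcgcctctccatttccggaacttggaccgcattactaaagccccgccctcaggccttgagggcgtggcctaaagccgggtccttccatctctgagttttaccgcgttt
Brca2: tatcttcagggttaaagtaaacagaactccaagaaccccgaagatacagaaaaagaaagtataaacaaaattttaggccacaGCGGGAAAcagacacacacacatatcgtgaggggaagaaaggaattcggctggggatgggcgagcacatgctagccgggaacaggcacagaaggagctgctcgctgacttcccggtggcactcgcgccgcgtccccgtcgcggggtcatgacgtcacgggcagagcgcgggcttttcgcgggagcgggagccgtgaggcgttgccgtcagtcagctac
Rad51c: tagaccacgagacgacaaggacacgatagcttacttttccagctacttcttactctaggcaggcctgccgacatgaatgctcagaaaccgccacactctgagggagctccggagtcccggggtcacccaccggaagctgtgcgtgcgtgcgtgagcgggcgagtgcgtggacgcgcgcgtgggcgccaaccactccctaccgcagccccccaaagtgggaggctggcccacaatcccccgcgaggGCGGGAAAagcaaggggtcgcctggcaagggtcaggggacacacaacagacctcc
Xrcc6: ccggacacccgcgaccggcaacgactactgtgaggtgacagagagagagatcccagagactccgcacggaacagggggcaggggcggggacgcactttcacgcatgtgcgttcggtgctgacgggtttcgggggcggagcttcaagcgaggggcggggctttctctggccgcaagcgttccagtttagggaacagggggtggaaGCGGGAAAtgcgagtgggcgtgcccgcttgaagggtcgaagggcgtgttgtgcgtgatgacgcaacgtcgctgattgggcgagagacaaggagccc

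Of the 5 end joining genes, 4 had a negative log2 fold change, and Xrcc4, Xrcc5 and Xrcc6 had negative ratios in all 3 tumors with groups that did not overlap; these 3 are named with values after their values were seen. Xrcc5 and Xrcc6 encode the Ku subunits that clamp onto broken ends. Xrcc6 measured 10.1, 15.012 and 9.57 CPM in the negative and 16.6, 23.8 and 16.4 CPM in the positive libraries. Its difference was close to equal in the 3 tumors, with log2 ratios of -0.72, -0.67 and -0.78. Xrcc6 had a log2 fold change of -0.82 (SE 0.28, adjusted p = 0.244 in limma-voom, 0.0696 with the block), so it did not pass. Xrcc6 overlaps Desi1, which had more counts, in the annotation. Xrcc5 measured 11.9, 10.3 and 7.21 CPM in the negative and 17.0, 14.8 and 21.7 CPM in the positive libraries, with a log2 fold change of -0.77 (SE 0.28, adjusted p = 0.275). The ligase partner Xrcc4 ranged from 5.17 to 7.73 CPM and from 8.14 to 21.7 CPM, and its widest gap was in tumor 1. Its log2 fold change was -0.64 (SE 0.38, adjusted p = 0.482). Prkdc, the kinase that Ku recruits, and Lig4, the ligase that closes the break, lay at -0.23 and 0.49, and Lig4 had its highest level, 10.7 CPM, in negative library 3 against 2.56 to 4.52 CPM elsewhere.

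Among the base excision and single-strand break genes, 5 of 6 had a negative log2 fold change and 0 passed the test. Parp1, the sensor that marks strand breaks with poly(ADP-ribose), was the most precise of them and is also named after its values were seen. It measured 14.6, 15.7 and 17.1 CPM in the negative and 21.5, 28.5 and 23.1 CPM in the positive libraries. The groups did not overlap and the ratio was negative in 3 of 3 tumors. Its log2 fold change of -0.69 (SE 0.21) missed the threshold in limma-voom, at adjusted p = 0.189, and with the block, at 0.0716. Lig1, the ligase of replication and long-patch repair, and Ung, the glycosylase that removes uracil, had their highest levels in positive library 2, at 33.8 and 3.65 CPM. In the other 5 libraries Lig1 lay between 5.29 and 13.8 CPM, and Ung between 0.0706 and 0.974 CPM. Xrcc1 and its partner Lig3 lay at -0.18 and 0.15, and the 8-oxoguanine glycosylase Ogg1 at -0.15.

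None of the kinases and break sensing genes passed the test, and Atm and Atr lay nearest to 0 among the kinases. Atm and Atr, the kinases at the head of signaling, measured means of 32.3 ± 10.5 and 16.9 ± 5.02 CPM (SD, n = 3) in the negative fraction and 34.5 ± 13.2 and 20.1 ± 2.89 CPM in the positive fraction. Their log2 fold changes were 0.03, with a 95% confidence interval from -0.70 to 0.76, and -0.17, with an interval from -0.80 to 0.46. The checkpoint kinases Chek1 and Chek2, which relay the signal, lay at -0.55 and -0.63. The break sensing genes Rad50 and Nbn of the end-processing complex, the chromatin adaptors Mdc1 and Trp53bp1 and the ubiquitin ligase Rnf8 lay between -0.52 and -0.10, all 5 below 0. Of them, 4 had negative ratios in all 3 tumors. The mismatch recognition gene Msh6 measured 12.0 ± 3.07 CPM (SD, n = 3) in the negative and 13.7 ± 3.36 CPM in the positive fraction, a log2 fold change of -0.27. Among the 38 genes, the 95% confidence interval lay wholly between -1 and 1 for 13, so for these a difference of more than 2-fold in either direction was outside the interval.

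Other genes of these pathways were read from 7 lists with 95 genes, of which 94 were tested. They divided into 30 with a positive and 64 with a negative log2 fold change, with a median of -0.24 beside -0.03 over all tested genes. Without the block, limma-voom called 0 of them. At an unadjusted p under 0.05 in that fit, 1 was higher and 14 were lower, against 7.23% and 7.1% of all tested genes. DESeq2 called 1 lower without the block and 5 with it, where it called 4.54% and 11.6% of all tested genes in either direction. The edgeR test called 0 and 1, against 0.0606% and 3.87% of all tested genes. With the block in limma-voom, 3 of the 94 genes were lower in CD34 negative CAFs and 0 were higher, against 4.25% and 4.32% of all tested genes. Rev3l, the catalytic subunit of the translesion polymerase zeta, measured 44.0, 31.9 and 55.1 CPM in the negative and 86.7, 62.7 and 125 CPM in the positive libraries. Its groups did not overlap, and the log2 fold change with the block was -1.05 (adjusted p = 0.0027 in limma-voom). Cetn2, a subunit of the Xpc complex, was lower by the same test, with -0.84 and an adjusted p of 0.037. Rpa3, the small subunit of the protein that coats single DNA strands, had a log2 fold change of -1.20 with the block and an adjusted p of 0.048. Without the block the adjusted p was 0.171 for Rev3l, 0.220 for Cetn2 and 0.169 for Rpa3. The recombination and Fanconi list outside the 38 genes had the lowest median, at -0.86, with 19 of 24 genes below 0.

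**Figure D4:**
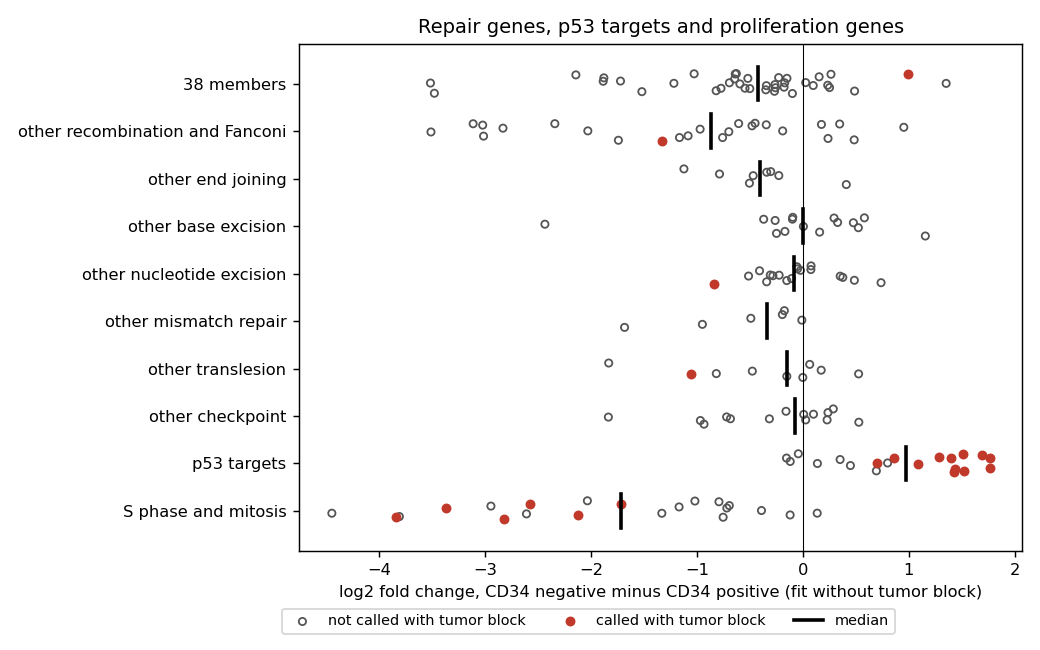
Log2 fold change of single genes from limma-voom without the block (x axis, CD34 negative minus CD34 positive) for the 38 genes, 7 lists of other repair and checkpoint genes, p53 targets and S phase and mitosis genes (y axis). Filled red points passed an adjusted p of 0.05 with the tumor as a block, and black bars are medians; p53 targets lie mainly to the right of 0 at a median of 0.97 and S phase and mitosis genes mainly to the left at -1.71.

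The genes that p53 switches on after damage lay mostly on the other side of 0 from the repair genes. Of 20 p53 targets, 17 had a positive log2 fold change, with a median of 0.97. With the block, 12 were called higher in CD34 negative CAFs, where 4.32% of all tested genes were. Without the block 1 was called, Phlda3, an inhibitor of Akt signaling. The number called higher was 9 in DESeq2 and 0 in edgeR without the block, and 14 and 8 with it. The called targets with the largest fold changes without the block were the apoptosis genes Pmaip1 and Bbc3, the stress sensor Sesn2 and the receptor Eda2r. Pmaip1 measured 63.8, 76.0 and 131 CPM in the negative and 26.6, 31.2 and 17.4 CPM in the positive libraries, with no overlap and a log2 fold change of 1.76 (SE 0.34, adjusted p = 0.0811 in limma-voom, 0.0068 with the block). Bbc3, Sesn2 and Eda2r had log2 fold changes of 1.76, 1.69 and 1.53 and passed with the block, with adjusted p of 0.036, 0.0039 and 0.015. The median of the p53 targets was 0.77, 0.87 and 1.20 in tumors 1, 2 and 3, so it was positive in each pair.

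The S phase and mitosis list was read beside the repair genes because positive library 2 stood highest in both. Of its 21 genes, 20 had a negative log2 fold change, with a median of -1.71. With the block, limma-voom called 6 lower in CD34 negative CAFs and 0 higher, against 4.25% and 4.32% of all tested genes. Without the block it called 0, with 6 lower at an unadjusted p under 0.05 (7.1% of all tested genes). DESeq2 and edgeR called 0 without the block, and 6 and 3 with it, all lower. Of the called genes, those with the largest fold changes without the block were Cdk1, the mitotic kinase, Mcm5, a subunit of the replicative helicase, Ccna2, which encodes cyclin A, and Top2a, a topoisomerase of mitotic chromosomes. Cdk1 had a count of 0 in negative library 3, and its log2 fold change was -3.85 without and -1.84 with the block. Top2a measured 2.33, 21.2 and 6.41 CPM in the negative and 14.4, 106 and 14.9 CPM in the positive libraries. Positive library 2 was the highest and negative library 1 the lowest, and the groups overlapped because negative library 2 exceeded positive libraries 1 and 3. The within-tumor medians of the list were -0.34, -1.83 and -0.97, so the largest gap was in tumor 2, as for the 10 S phase-linked genes. Over all 38 repair genes the lowest within-tumor median was in tumor 3, at -0.40.

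Which of the repair genes were called depended on how the libraries were weighted. With the block and sample quality weights, in which negative library 3 and positive library 3 received weights of 0.363 and 0.387 against 1.39 to 1.88 for the others, 9 of the 38 genes were called (23.7%), where 19.5% of all tested genes were. Polk was higher and Brca1, Bard1, Xrcc5, Xrcc6, Lig1, Fancd2, Polh and Parp1 were lower, with log2 fold changes between -2.33 and -0.60. With the block but without tumor 3, 6 were called (15.8%, against 13% of all tested genes), namely Polk, Brca1, Bard1, Xrcc6, Lig1 and Parp1. Brca1 and Lig1, however, had log2 fold changes of 1.63 and 0.62 with the block without tumor 2. Polk, Xrcc6 and Parp1 kept one sign in all 28 alternatives run, and Bard1 in the 26 in which it passed the filter.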

How the data were processed

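Poly(A) RNA of CD34 negative and CD34 positive CAFs from 3 raGFP-Wnt1 tumors was sequenced after TruSeq library preparation. The deposited values are raw counts per NCBI gene, which the authors made by aligning reads to GRCm38 (mm10) and counting with featureCounts of Rsubread. Strand use and the handling of reads with several matches are not given in the sources used here, which leaves overlapping genes uncertain. Beside Ddb2, Fanca, Fancd2 and Xrcc6, the genes Atr, Ercc1, Lig1, Lig3, Msh6, Ogg1, Trp53bp1, Ung and Xrcc3 overlap another annotated gene. The genes that overlap Msh6, Ogg1, Ung and Xrcc3 had more counts than these did. Library totals of 16238059 to 86609267 counts set the precision of low genes, and floors of 3 counts cover counting error only.

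Groups and tumor numbers came from the sample titles. Genes were filtered with filterByExpr (minimum count 10), scaled with TMM factors (trimmed mean of M-values) and compared by limma-voom. No tumor term was used, since the study's methods state none. Tests were two-sided, with Benjamini-Hochberg adjustment over 14855 genes and a threshold of 0.05 (R 4.3.3, limma 3.58.1, edgeR 4.0.16, DESeq2 1.42.0). Over all tested genes, this fit called 3 higher and 15 lower in CD34 negative CAFs. The paper reports far more genes higher in CD34 negative CAFs, so the fit without the block did not reproduce its calls. With the tumor as a block, limma-voom called 642 genes higher and 631 lower. Whether these are the genes of the paper was not tested, and neither was the reason for the difference. Ratios within a tumor are differences of voom log2 CPM. The limma-voom fits were tested on simulated data with large changes in better expressed genes, which does not cover smaller changes or low genes. Both fractions of a pair come from one tumor, so the tumor number pairs the libraries; deviations from the group means correlated within tumors at 0.373, 0.350 and 0.219. Values with the tumor as a block are given where they change a call.

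The 38 genes and the other lists were chosen with earlier results of these data known. Among the 38 genes, values in every library are given for genes called with or without the block, the 8 largest fold changes and genes with a count of 0. Further genes of the 38 given by library were chosen after their values were seen. From each other list, up to 4 called genes with the largest fold changes are named, beside Phlda3. Of these, only Rev3l, Pmaip1 and Top2a are given by library. Positions and promoters are from RefSeq on GRCm38.p6. Alternatives covered normalization (RLE, upper quartile), the filter (none, minimum count 50), edgeR, DESeq2, sample quality weights, a gene length trend (loess, span 0.3), the block, each library and each tumor.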

Additional observations from a re-analysis of the deposited data

How the results depend on the processing

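The number of the 38 genes called was 0 in limma-voom and stayed 0 in 16 of 17 alternatives without the tumor as a block, the exception being DESeq2 with 1. With the replicate block it was 1 in limma-voom, with a length trend removed, with RLE factors, with no low-count filter, with a minimum count of 50 and without tumor 1, 2 without tumor 2, 3 in DESeq2, 6 without tumor 3, 9 with sample quality weights and 0 in edgeR. The block combined with quality weights, RLE factors or another filter was added after seeing the data. Leaving out libraries or tumors without the block gave 0 throughout. Over all tested genes, 18 were called, 9 by edgeR, 674 by DESeq2 and 161 with quality weights. With the replicate block the number was 1273 in limma-voom, 575 in edgeR, 1730 in DESeq2, 1181 with the length trend removed, 1134, 851 and 2019 without tumors 1, 2 and 3, 2904 with quality weights, 1255 with RLE factors, 802 with no low-count filter and 1269 with a minimum count of 50. Leave-one-out fits without the block gave 0 to 86, with 0 without negative library 3, positive library 2, tumor 2 or tumor 3, 2 when positive library 3 was left out, 3 and 7 when negative library 2 or 1 was, 34 for positive library 1 and 86 for tumor 1. Where the cause of such a shift is not in the construction of the fit, the cause was not tested.

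Of the 38 genes, 21 kept one sign in every alternative in which they passed the filter (26 to 28 of 28 per gene) and 17 changed sign in at least 1; 28 were never called. Atm, at 0.03, was below 0 in edgeR (-0.093), DESeq2 (-0.11), with quality weights (-0.28) and with the length trend removed (-0.049), and with the replicate block in limma-voom (-0.068), edgeR (-0.083), DESeq2 (-0.095), with the length trend removed (-0.12), quality weights (-0.25), RLE factors (-0.079), no filter (-0.056), a minimum count of 50 (-0.065) and without tumors 2 (-0.043) and 3 (-0.37). With the block and without tumor 2, Brca1 was 1.63, Brca2 0.10, Chek1 0.64, Lig1 0.62, Ung 0.56 and Xrcc1 0.16. With the block and without tumor 3, Ercc5 was -0.058, Ogg1 0.051, Rnf8 0.057 and Xpa 0.00091. Chek1 was 0.063 in edgeR and 0.055 in DESeq2. Quality weights gave -0.11 for Ercc5, 0.0098 for Rnf8 and 0.16 for Ung, and with the block 0.060 for Ogg1 and 0.035 for Rnf8; Ogg1 was 0.014 with the block without tumor 1. Leaving out a library or a tumor moved Atm between -0.28 and 0.27, Atr between -0.40 and 0.059, Brca1 between -2.48 and 0.73, Brca2 between -0.96 and 0.22, Chek1 between -1.03 and 0.059, Ercc5 between -0.16 and 0.25, Lig1 between -1.12 and 0.78, Lig4 between -0.032 and 0.96, Msh6 between -0.43 and 0.047, Ogg1 between -0.75 and 0.072, Rad51c between -3.50 and 1.08, Rnf8 between -0.21 and 0.023, Ung between -2.30 and 1.48, Xpa between -0.53 and 0.061, Xpc between -0.031 and 0.38, Xrcc1 between -0.45 and 0.21 and Xrcc3 between -0.26 and 0.69. For 7 of the 38 genes the mean was under 3 CPM in both groups, and their fold changes rest on few counts.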
